A study of Drosophila melanogaster with 10 samples.

Results

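The desaturase genes Desat1, Desat2, Fad2, ifc, CG8630, CG9743, CG9747 and CG15531 were chosen by name as the fly genes annotated as fatty acyl desaturases or close to them, and all 8 were found among the 13986 gene identifiers of the oenocyte RNA-seq tables. Oenocytes, the hydrocarbon-producing cells under the abdominal cuticle, were dissected from adult Drosophila melanogaster, males per the text of the study, moved to 29°C for 7 days after developing at 25°C. Polyadenylated RNA from 5 genotypes was sequenced, with 2 libraries each. All 5 genotypes carried the oenocyte driver prom-E800-Gal4. It drove a fru hairpin in oeno>fru IR (VDRC330035), oeno>fru IR-2 (BDSC#31593) and oeno>fru IR-3 (VDRC105005), UAS-FruCOMB in oeno>fru OE, and UAS-mCD8-GFP in control, and the first 4 are written below as IR, IR-2, IR-3 and OE. Each hairpin is 1 insertion line. The p values weigh a difference between genotypes against the variation between libraries of a genotype, as fitted over all genes. They do not cover variation between insertion lines. The study calls libraries of a genotype biological replicates, without saying how many flies each pooled.

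Fatty acyl desaturases put a double bond into the acyl chain of a fatty acyl-CoA, using electrons handed on by cytochrome b5. In oenocytes the unsaturated acyl-CoA is lengthened by elongases, reduced to an aldehyde and turned into a hydrocarbon, so that the position and number of double bonds in the cuticular pheromones are set at the desaturase step. Desat1 makes the precursors of the monoene pheromones of both sexes. Desat2 acts on a shorter substrate and shapes the diene pheromones of females of some strains, while it is little expressed in most others. Fad2, also known as desatF, adds the second double bond of female dienes and is known as a gene of female oenocytes. ifc encodes a dihydroceramide desaturase of sphingolipid synthesis, so its substrate is not an acyl-CoA, although it is kept here because the list was made by name. CG8630, CG9743, CG9747 and CG15531 are related to Desat1 by sequence, and their substrates are less well known.

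In the BDGP6.54 annotation 6 of the 8 genes lie on chromosome arm 3R, in a pair, a triplet and a single gene. Desat2 (FBgn0043043, 3R:12436248-12437857) and Desat1 (FBgn0086687, 3R:12439600-12447616) lie in tandem on the plus strand with 1742 bases between them. CG9747 (FBgn0039754, 3R:30185423-30191252), CG15531 (FBgn0039755, 3R:30194790-30196228) and CG9743 (FBgn0039756, 3R:30196360-30202998) follow one another on the minus strand, with gaps of 3537 and 131 bases. CG8630 (FBgn0038130, 3R:13279721-13284527) lies alone on the plus strand of 3R. Fad2 (FBgn0029172, 3L:11023535-11024846) and ifc (FBgn0001941, 2L:5986348-5988854) lie on the plus strands of their arms. Desat1 has 5 annotated transcripts, CG9747 and ifc have 2 each, and the counts of a gene sum over them.

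The study designed RT-qPCR primers for the tandem pair, shown here 5′ to 3′ because they are the sequences designed for Desat1 and for its neighbour Desat2. The longest run shared between the Desat1 and Desat2 primers of the same direction is 6 bases for the forward and 4 bases for the reverse primers. This compares primers only, and whether a primer also pairs with the transcript of the other gene was not tested.
Desat1 forward: tgccgattgcttgcttcat
Desat1 reverse: ttcaccccaggcgtacatg
Desat2 forward: ggtggtgcttccagctaaaca
Desat2 reverse: ggcgatttccgaatttatgg

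The libraries held between 23415354 and 46840820 counts assigned to genes, and the expected counts of the 8 desaturase genes were whole numbers in every library, with no fractional share assigned to or from another gene. Levels are given as TMM-rescaled TPM, a transcript abundance corrected for gene length (TPM) and multiplied by 1 factor per library that the authors took from the trimmed mean of M values. Counts were tested with edgeR's quasi-likelihood test over the 4 libraries of a comparison, and called means an adjusted p below 0.05. For 2 libraries against 2, the smallest two-sided p of an exact permutation test is 0.333, which is why p values are taken from edgeR's fit over all genes. The targeted gene fru had 3.66 and 3.55 in the libraries labelled IR, 7.29 and 7.32 in those labelled IR-2, 1.60 and 1.62 in those labelled IR-3, 43.5 and 43.3 in those labelled OE, and 2.26 and 2.34 in control libraries. In IR and IR-2, fru reads were thus higher than in control (log2 fold change 0.57 and 1.03). The paper reports that the Fru protein signal disappeared from oenocytes when a fru hairpin was driven there. It describes 2 hairpin lines as differing in knockdown strength, by antibody signal and by RT-qPCR with a whole-body driver. Whether reads from a driven hairpin or from UAS-FruCOMB were counted as fru was not tested. Each genotype name therefore stands for a label, and no difference is tied to a loss of fru transcript.

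**Figure D1:**
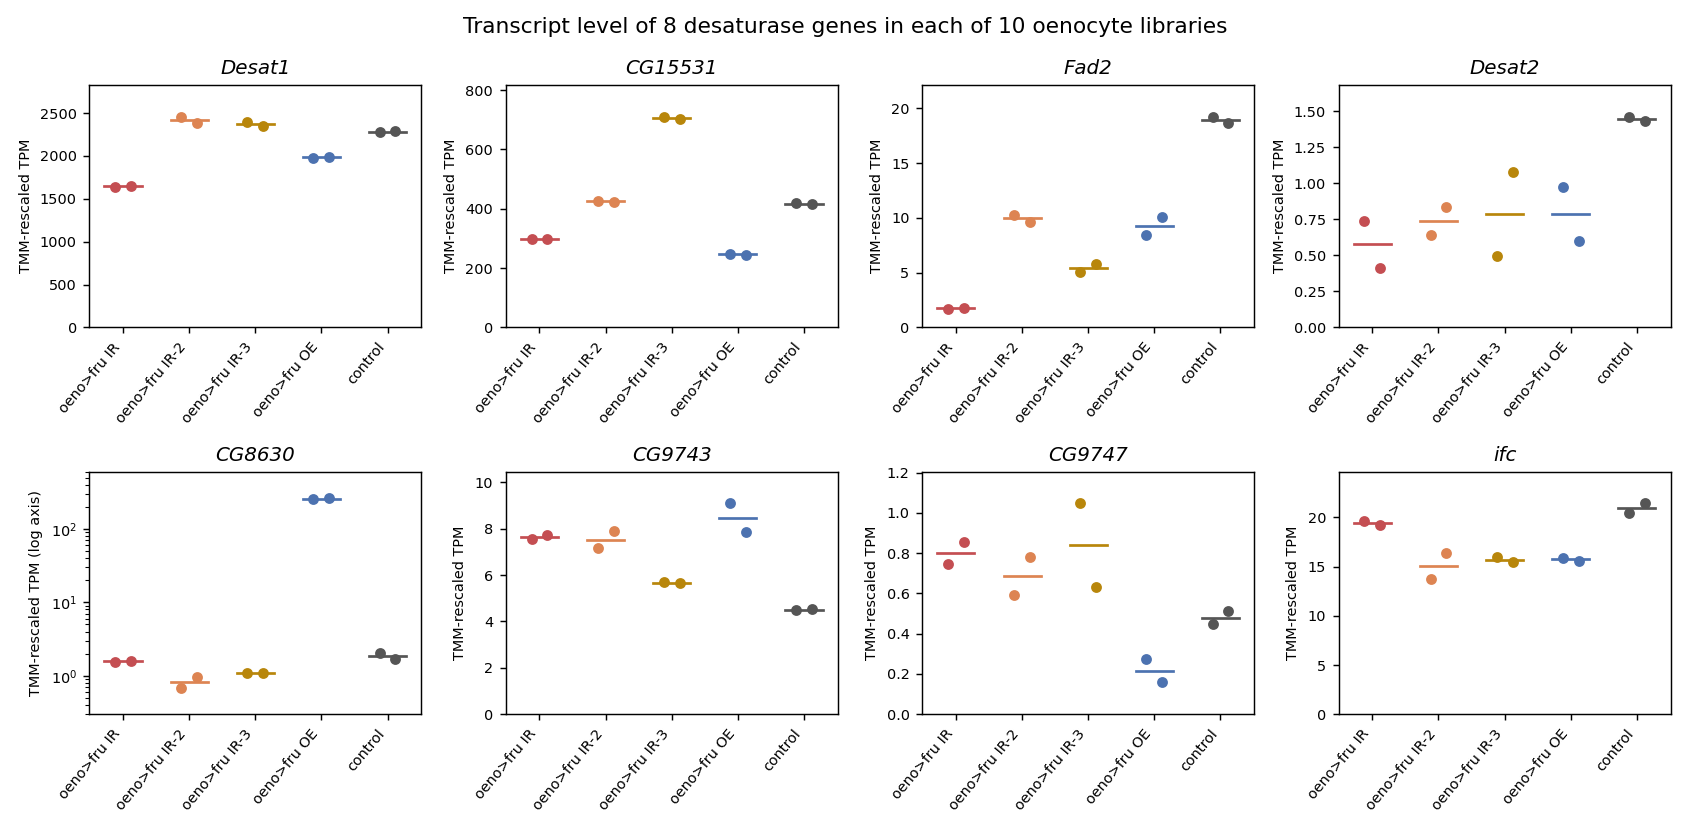
TMM-rescaled TPM of each desaturase gene (vertical axes, linear from 0 except a log axis for CG8630) in the 2 libraries of each genotype, with the mean as a line. CG8630 stands at 257 and 261 in OE and at 2.06 or less elsewhere, Fad2 and Desat2 are highest in control, and CG9743 is lowest there.

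Within control libraries the levels ran from 0.446 for CG9747 to 2286 for Desat1. Desat1 ranked 92nd by TPM among all 13986 genes in control, CG15531 341st, ifc 3273rd, Fad2 3499th, CG9743 6863rd, CG8630 8656th, Desat2 9083rd and CG9747 10553rd. Of the summed TPM of the 8 genes, Desat1 made up 83.3% ± 0.111 in libraries labelled IR, 84.05% ± 0.334 in IR-2, 76.3% ± 0.130 in IR-3, 78.6% ± 0.0524 in OE and 83.1% ± 0.0984 in control (SD, n = 2 each). CG15531 made up 15.1% ± 0.0995, 14.7% ± 0.228, 22.8% ± 0.110, 9.75% ± 0.116 and 15.2% ± 0.0998 in the same order of genotypes. CG8630 made up 10.2% ± 0.0830 in OE and 0.0687% ± 0.0088 in control. Desaturase transcripts were thus almost all Desat1 and CG15531 in 4 genotypes, with CG8630 as the third large part in OE. The summed TMM-rescaled TPM of the 8 genes was 1975 and 1979 in libraries labelled IR, 2918 and 2846 in IR-2, 3135 and 3084 in IR-3, 2520 and 2533 in OE, and 2746 and 2750 in control.

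**Figure D2:**
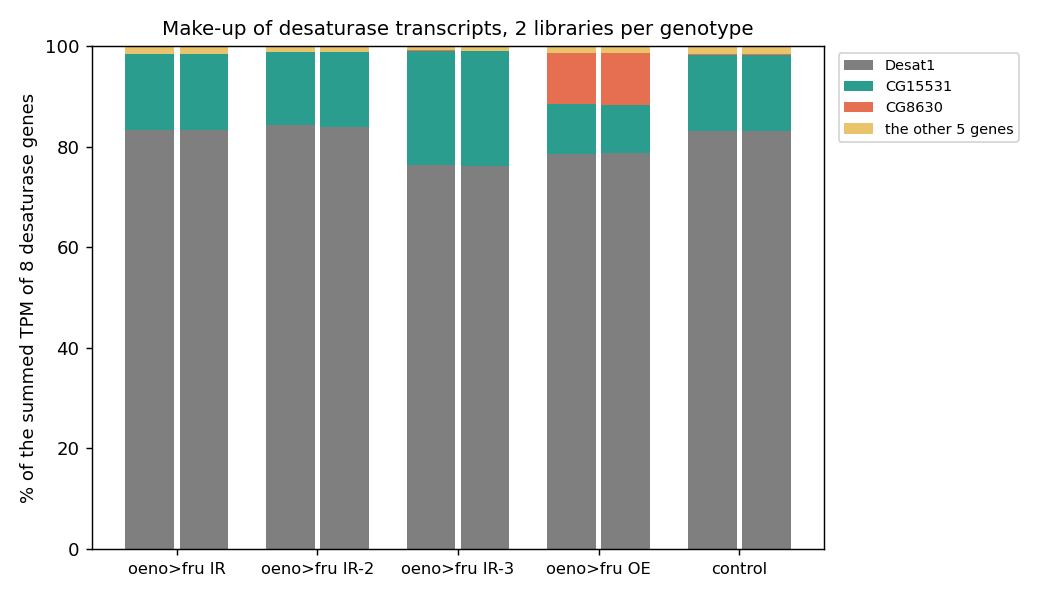
Share of each desaturase gene in the summed TPM of the 8 genes (%, vertical axis) in each of the 10 libraries, 2 bars per genotype. Desat1 takes 76.3% to 84.05% on average, CG15531 is widest in IR-3 at 22.8%, and CG8630 is visible as a separate band in OE alone, at 10.2%.

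Against control, 6 of the 8 genes were called in libraries labelled IR, 6 in IR-2, 5 in IR-3 (3 without control replicate 1) and 8 in OE. Among all genes tested, edgeR called 62.3% of 11729 in IR, 49.9% of 11464 in IR-2, 52.7% of 11472 in IR-3 and 65% of 11601 in OE, so being called was common among all genes and nothing particular to the desaturase genes is read from these counts. By direction, 2 were higher and 4 lower in IR, where 31.7% of all genes tested were higher and 30.6% lower. In IR-2, 2 were higher and 4 lower, beside 26% higher and 23.9% lower of all genes, and in IR-3, 2 were higher and 3 lower, beside 26% higher and 26.7% lower. In OE, 2 were higher and 6 lower, beside 31.4% higher and 33.7% lower. Scaled by library size alone, without TMM, 1 was higher and 6 lower in IR-2, and 1 higher and 4 lower in IR-3. The median log2 fold change of the 8 genes was -0.35, -0.23, -0.20 and -0.71 in IR, IR-2, IR-3 and OE, beside -0.0087, -0.0172, -0.0079 and 0.0357 over all genes tested. At the stricter limit of an adjusted p of at most 0.001 and a change of at least 4-fold, Fad2 passed in IR and CG8630 in OE, and no desaturase gene passed in the other comparisons with control. That limit was passed by 2.77% of all genes in IR, 1.74% in IR-2, 1.35% in IR-3 and 4.13% in OE.

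**Figure D3:**
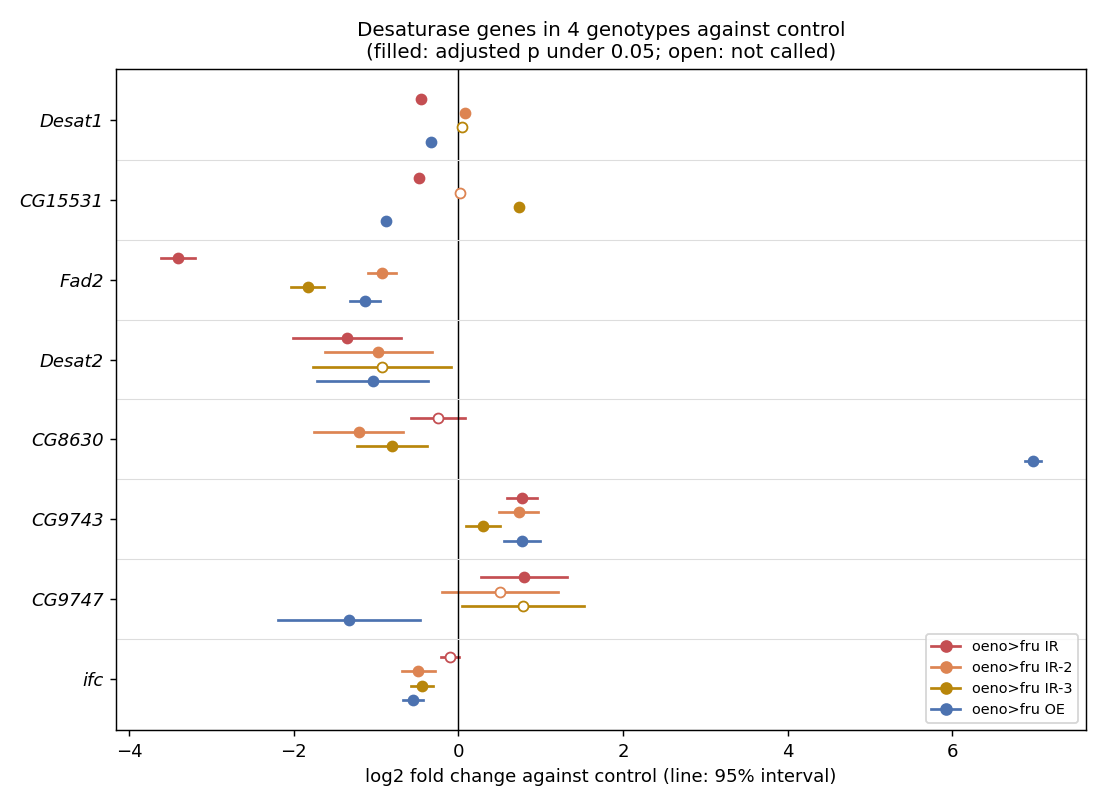
Log2 fold change of each desaturase gene against control (horizontal axis) in the 4 other genotypes, with 95% intervals as lines and filled points for genes called by edgeR. CG8630 in OE, at 6.98, and Fad2 in the libraries labelled IR, at -3.41, lie farthest from 0, while Desat1 lies between -0.46 and 0.08, the second of which turns to -0.08 with library size alone.

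Desat1, the main acyl-CoA desaturase of these cells, differed from control by at most 1.37-fold. Its TMM-rescaled TPM was 1643 and 1650 in libraries labelled IR, 2460 and 2386 in IR-2, 2394 and 2350 in IR-3, 1981 and 1993 in OE, and 2279 and 2286 in control. The libraries labelled IR were lowest, those labelled OE came next, and neither overlapped with control. On the counts it was 1.37-fold lower in IR (log2 fold change -0.46, SE 0.0155, adjusted p = 5.31e-12 from edgeR) and 1.26-fold lower in OE (-0.33, SE 0.0139, adjusted p = 5.92e-10 from edgeR), or by log2 fold changes of -0.24 and -0.16 with library size alone. It was 1.06-fold higher in IR-2 (0.08, SE 0.0172, adjusted p = 0.00447 from edgeR), a direction that turned to -0.08 with library size alone. In IR-3 its log2 fold change was 0.04 with a 95% interval of -0.0056 to 0.0934 (adjusted p = 0.122 from edgeR), which turned to -0.05 with library size alone and was called under DESeq2 (adjusted p = 0.00173). It was also called in IR-3 at 0.07 without IR-3 replicate 2 (adjusted p = 0.000785 from edgeR). Between 79249 and 149681 counts stood behind each Desat1 value.

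Marker lists of oenocytes and of other tissues were set beside Desat1. The summed TMM-rescaled TPM of 9 oenocyte markers was 10646 and 10641 in libraries labelled IR, 73362 and 71210 in IR-2, 85112 and 83847 in IR-3, 42696 and 42937 in OE, and 56751 and 57129 in control. On this scale the list, like Desat1, stood below control in IR and OE and above it in IR-2 and IR-3, where the Desat1 difference turned with library size alone. Most of it was Cyp4g1, the hydrocarbon-forming P450, with 8968 and 8951 in IR and 53859 and 54203 in control, while FASN3, a fatty acid synthase of oenocytes, had 221 and 216 in IR and 92.9 and 93.4 in control, and sala was at or near 0 in every library. The summed level of 8 muscle markers was 2033 and 2021 in IR, 1285 and 1261 in IR-2, 1160 and 1171 in IR-3, 1863 and 1824 in OE, and 982 and 986 in control, above control in all 4 genotypes. That of 7 fat body markers was 819 and 833 in IR, 754 and 767 in IR-2, 1027 and 1018 in IR-3, 415 and 396 in OE, and 1319 and 1341 in control, below control in all 4 genotypes. Every oenocyte marker except sala is also on the list of hydrocarbon synthesis genes described below. In such bulk samples fewer oenocytes, less RNA per oenocyte and changed expression of these genes within the cells cannot be told apart. The part of these lists in the desaturase values was not tested.

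Desat2, which sits next to Desat1, was at the edge of what this depth can measure, with 17 to 54 counts per library. Its TMM-rescaled TPM was 0.738 and 0.415 in libraries labelled IR, 0.645 and 0.839 in IR-2, 0.494 and 1.08 in IR-3, 0.978 and 0.599 in OE, and 1.46 and 1.44 in control. All 8 libraries of the other genotypes lay below both control libraries. Desat2 was 2.56-fold lower in IR (log2 fold change -1.35, SE 0.306, adjusted p = 0.00155 from edgeR), 1.96-fold lower in IR-2 (-0.97, SE 0.279, adjusted p = 0.0217 from edgeR) and 2.06-fold lower in OE (-1.04, SE 0.307, adjusted p = 0.0104 from edgeR), while in IR-3 the log2 fold change of -0.93 was not called (adjusted p = 0.061 from edgeR; 0.037 with the replicate number as a block). The calls in IR-2 and OE were lost under DESeq2 (adjusted p = 0.132 and 0.054) and without OE replicate 2 (-0.69 in OE, adjusted p = 0.116), and that in IR-2 also without IR-2 replicate 1 (0.0992), without either control library (0.103 and 0.102) and with the dispersion of all 10 libraries (0.063). In IR-3 Desat2 was -0.46 without IR-3 replicate 1 (adjusted p = 0.272 from edgeR) and -1.57 without IR-3 replicate 2 (adjusted p = 0.0052 from edgeR), so its value there rested on which library was kept.

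The annotation places CG17207 and CG46427 on the opposite strand from 3R:12437817 on, overlapping only the end of Desat2, which stops at 3R:12437857. The expected counts of Desat2 were whole numbers in every library. Whether the counting used strand is not given in the sources used here, so reads from this short overlap cannot be assigned with certainty. CG46427 had 0.494 to 1.67 and CG17207 0.32 to 0.573 TMM-rescaled TPM over the 10 libraries, levels like those of Desat2. Neither was called in a comparison with control. The genes closest to Desat2 in pattern, CG33120, Eglp2 and Cks85A, lay at root mean square differences of 0.31, 0.338 and 0.344 in centred log2 CPM, beside an SD of 0.546 for Desat2 itself, and CG33120 averaged 6.28 TMM-rescaled TPM in libraries labelled IR, 6.71 in IR-2, 8.39 in IR-3, 8.97 in OE and 14.9 in control. In IR-2 Desat2 was 1.96-fold lower and Desat1 1.06-fold higher, the second of which turned to a log2 fold change of -0.08 with library size alone.

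Fad2, the desaturase of female dienes, was highest in control libraries and lower in all 4 other genotypes. Its TMM-rescaled TPM was 1.72 and 1.80 in libraries labelled IR, 10.3 and 9.64 in IR-2, 5.03 and 5.83 in IR-3, 8.48 and 10.1 in OE, and 19.2 and 18.6 in control. The control libraries stood above all others, and those labelled IR stood below all others. Fad2 was 10.6-fold lower in IR (log2 fold change -3.41, SE 0.0965, adjusted p = 7.66e-13 from edgeR), 1.90-fold lower in IR-2 (-0.93, SE 0.0735, adjusted p = 2.25e-05 from edgeR), 3.56-fold lower in IR-3 (-1.83, SE 0.0874, adjusted p = 3.99e-07 from edgeR) and 2.19-fold lower in OE (-1.13, SE 0.0853, adjusted p = 1.65e-07 from edgeR). These comparisons share the control libraries.

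Without the control, Fad2 was lower in the libraries labelled IR than in those labelled IR-2 by 5.57-fold (adjusted p = 1.91e-06 from edgeR) and than in those labelled IR-3 by 3.03-fold (adjusted p = 3.58e-05 from edgeR), and 4.96-fold higher in OE than in IR (adjusted p = 1.3e-09 from edgeR). Between OE and IR-2, neighbours in the order of levels, the log2 difference was -0.17 with a 95% interval of -0.43 to 0.0935 (adjusted p = 0.228 from edgeR). Because Fad2 is known from females, markers of female tissue were set beside it. The summed level of 7 genes of the female fat body and ovary was 29.7 and 19.3 in IR, 35.5 and 32.9 in IR-2, 47.7 and 40.6 in IR-3, 35.7 and 42.0 in OE, and 17.7 and 22.8 in control, so this list was lowest on average in control, where Fad2 was highest, with 1 IR library among the control values. Its yolk protein gene Yp1 had 10.1 and 4.94 in IR and 5.82 and 8.20 in control, and the chorion gene Cp36 was under 1 in every library. Both the summed level of the oenocyte markers, most of it Cyp4g1, and Fad2 were lowest in libraries labelled IR. Single genes of that list differed from the sum, as FASN3 was above control in IR and eloF was lowest in OE. The part of the markers in the Fad2 values was not tested.

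The nearest annotated gene after Fad2, CG32079, starts 714 bases beyond it and had between 0 and 8 counts per library. By the root mean square difference in centred log2 CPM over the 10 libraries, among 6458 genes with a mean log2 CPM of at least 3, the genes whose pattern lay closest to Fad2 were CG1113 (0.51), CG10764 (0.608) and CG14406 (0.643). CG1113 averaged 2.73 TMM-rescaled TPM in libraries labelled IR, 7.18 in IR-2, 5.99 in IR-3, 8.66 in OE and 10.6 in control. It shared with Fad2 the lowest value in IR and the highest in control.

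CG15531, the second most abundant of the 8 genes, was the only one whose level was called different in all 6 comparisons among the 4 genotypes other than control. Its TMM-rescaled TPM was 300 and 298 in libraries labelled IR, 426 and 424 in IR-2, 711 and 704 in IR-3, 248 and 245 in OE, and 419 and 416 in control. Replicates differed by at most a few percent, and no 2 genotypes overlapped. It was 1.66-fold higher in IR-3 (log2 fold change 0.74, SE 0.0179, adjusted p = 6.07e-09 from edgeR), 1.39-fold lower in IR (-0.47, SE 0.0204, adjusted p = 7.94e-11 from edgeR) and 1.84-fold lower in OE (-0.88, SE 0.0202, adjusted p = 1.96e-12 from edgeR), the value in IR being -0.26 with library size alone. In IR-2 its log2 fold change of 0.02, with a 95% interval of -0.0129 to 0.0607, was not called (adjusted p = 0.242 from edgeR) and turned to -0.14 with library size alone. Between the ends of its order, CG15531 was 2.92-fold lower in OE than in IR-3 (log2 fold change -1.55, SE 0.0175, adjusted p = 3.15e-10 from edgeR).

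The genes closest to CG15531 in pattern, whose own SD over the 10 libraries was 0.543 in log2 CPM, were ref(2)P, a receptor for selective autophagy (root mean square difference 0.1), CG5966 (0.122) and ATPCL, the ATP citrate lyase that makes cytosolic acetyl-CoA for fatty acid synthesis (0.123), compared over 10 libraries with 6457 genes. ATPCL averaged 304 TMM-rescaled TPM in libraries labelled IR, 430 in IR-2, 603 in IR-3, 216 in OE and 436 in control. ref(2)P averaged 643, 1057, 1468, 511 and 889 in the same order of genotypes. Both were highest in IR-3 and lowest in OE, as CG15531 was.

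**Figure D4:**
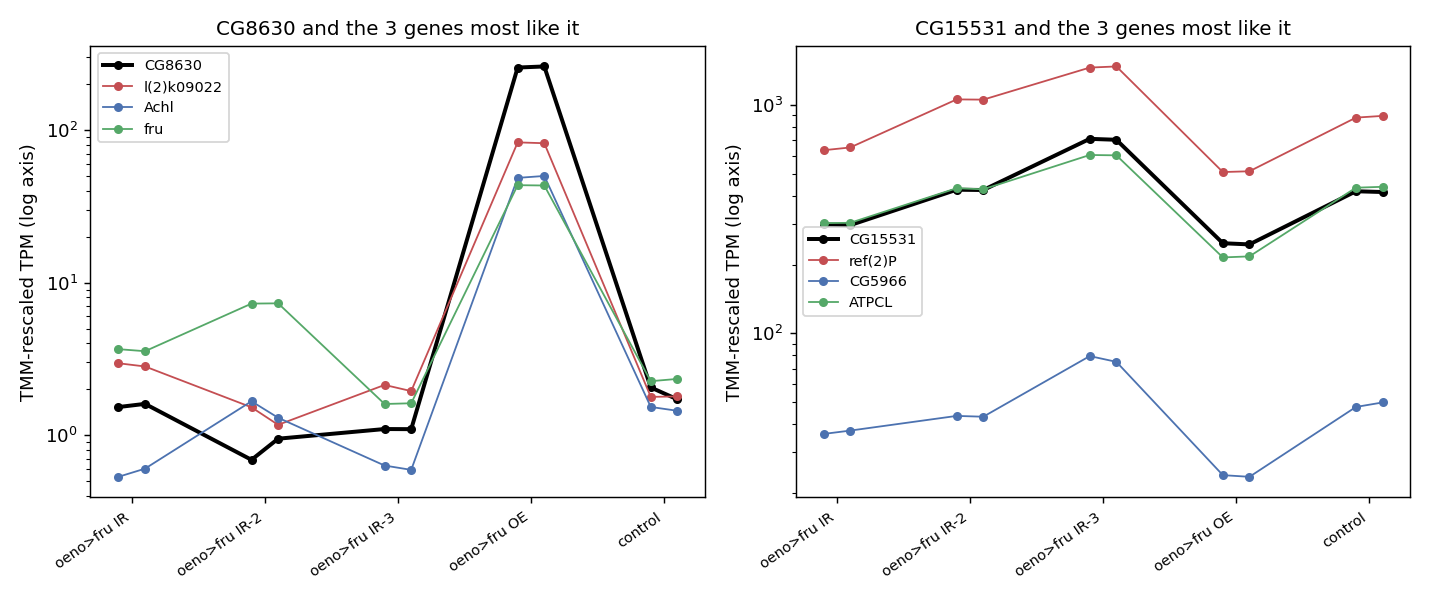
TMM-rescaled TPM (log axes) of CG8630 and CG15531, thick lines, and of the 3 genes closest to each in centred log2 CPM, with 2 points per genotype for its libraries. The genes beside CG8630 share a peak in OE and differ among the other genotypes, while those beside CG15531 run nearly parallel to it, with ATPCL at 216 to 603.

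CG9743 and CG9747, the genes on either side of CG15531, were low, and CG9743 did not follow CG15531. CG9747 had its lowest mean in OE and its highest in IR-3, as CG15531 did, though its difference between IR-3 and IR was not called. In IR, CG9747 was higher than control where CG15531 was lower. CG9743 had 7.54 and 7.74 in libraries labelled IR, 7.15 and 7.89 in IR-2, 5.71 and 5.64 in IR-3, 9.10 and 7.85 in OE, and 4.51 and 4.52 TMM-rescaled TPM in control. All 8 libraries of the other genotypes lay above both control libraries. It rose 1.71-fold in IR (log2 fold change 0.77, SE 0.086, adjusted p = 2.62e-06 from edgeR), 1.66-fold in IR-2 (0.73, SE 0.1, adjusted p = 0.000539 from edgeR) and 1.71-fold in OE (0.77, SE 0.102, adjusted p = 2.8e-05 from edgeR). In IR-3 it was 1.23-fold higher (0.30, SE 0.0899, adjusted p = 0.0213 from edgeR), a call that was lost under DESeq2 (adjusted p = 0.205), under edgeR's exact test (0.103), with library size alone (0.0774) and on leaving out any 1 of the 4 libraries (0.0593 to 0.0887). CG9743 was thus higher where CG15531 was 1.39-fold lower, in IR, and where it was 1.84-fold lower, in OE, although the genes lie 131 bases apart on the same strand.

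CG9747 had 0.747 and 0.857 in libraries labelled IR, 0.590 and 0.783 in IR-2, 1.05 and 0.632 in IR-3, 0.273 and 0.158 in OE, and 0.446 and 0.514 TMM-rescaled TPM in control, from 11 to 86 counts per library. The OE libraries lay below all others and the fru hairpin libraries above control. It was 2.51-fold lower in OE (log2 fold change -1.33, SE 0.392, adjusted p = 0.0106 from edgeR) and 1.74-fold higher in IR (0.80, SE 0.244, adjusted p = 0.0115 from edgeR). Its log2 fold changes of 0.51 in IR-2 and 0.78 in IR-3 were not called (adjusted p = 0.2 and 0.072 from edgeR). Both calls were lost under DESeq2 (adjusted p = 0.0833 in OE and 0.104 in IR), the first also without OE replicate 2 (0.141) or control replicate 2 (0.08) and the second without IR replicate 2 (0.0997), while the value of IR-3 was 0.36 without IR-3 replicate 1 (0.491) and 1.107 without IR-3 replicate 2 (0.0165). Against the hairpin genotypes, CG9747 was lower in OE by 4.27-fold (IR, adjusted p = 4.8e-05 from edgeR), 3.41-fold (IR-2, adjusted p = 0.00713 from edgeR, and 0.0644 without OE replicate 2) and 4.09-fold (IR-3, adjusted p = 0.00308 from edgeR). The genes closest to it in pattern were Der-1, which takes part in the removal of misfolded proteins from the endoplasmic reticulum (0.266), spidey, the ketoacyl reductase of fatty acid elongation (0.279), and NUCB1 (0.292). spidey averaged 1868, 1854, 2186, 720 and 1272 TMM-rescaled TPM in IR, IR-2, IR-3, OE and control.

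CG8630 had the largest difference among the 8 genes. Its TMM-rescaled TPM was 1.53 and 1.60 in libraries labelled IR, 0.690 and 0.949 in IR-2, 1.10 and 1.10 in IR-3, 257 and 261 in OE, and 2.06 and 1.72 in control. It stood within the level of the weakly expressed desaturases in 4 genotypes and near that of CG15531 in OE, and the OE libraries did not overlap with any others. It rose 127-fold in OE (log2 fold change 6.98, SE 0.046, adjusted p = 2.4e-17 from edgeR), with 36 counts in the lowest and 18181 in the highest of the 10 libraries. It was also called lower in IR-2, 2.31-fold (-1.21, SE 0.231, adjusted p = 0.00323 from edgeR), and in IR-3, 1.75-fold (-0.81, SE 0.186, adjusted p = 0.00651 from edgeR), and the call in IR-3 was lost without control replicate 1 (0.0627). In IR its log2 fold change of -0.24 had a 95% interval of -0.57 to 0.0862 (adjusted p = 0.182 from edgeR). Over all alternatives, its log2 fold change in OE stayed between 6.49 and 7.16.

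The rise of CG8630 was not shared by the genes beside it. TBC1D5, the nearest gene before it at 7709 bases, had 30.8 and 28.5 TMM-rescaled TPM in OE and 33.1 and 32.9 in control (log2 fold change -0.29, SE 0.043, adjusted p = 8.14e-05 from edgeR). CG15888, which lies 418 bases beyond it on the opposite strand, had at most 1 count in any library and was not tested. The genes closest to CG8630 in pattern were l(2)k09022 (root mean square difference 0.977), Achl (1.09) and fru itself (1.58), where the SD of CG8630 over the 10 libraries was 3.03 on the same scale. l(2)k09022 averaged 82.5 TMM-rescaled TPM in OE and 1.79 in control, and Achl 49.3 in OE and 1.49 in control. Because fru is the gene driven in OE, its likeness to a gene with a peak there is not read as a result. Outside OE, fru was highest in IR-2, at a mean of 7.30, where CG8630 was lowest, at 0.819.

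ifc, the dihydroceramide desaturase, varied by 1.39-fold between its highest and lowest genotype mean. It had 19.7 and 19.3 TMM-rescaled TPM in libraries labelled IR, 13.7 and 16.4 in IR-2, 16.0 and 15.5 in IR-3, 15.9 and 15.5 in OE, and 20.4 and 21.4 in control. It fell in IR-2 (log2 fold change -0.48, SE 0.0876, adjusted p = 0.00243 from edgeR), IR-3 (-0.44, SE 0.0593, adjusted p = 0.000306 from edgeR) and OE (-0.55, SE 0.0559, adjusted p = 2.93e-06 from edgeR), and in IR its log2 fold change of -0.10 was not called (95% interval -0.21 to 0.0084, adjusted p = 0.0998 from edgeR; 0.12 with library size alone). Among the 3 genotypes where it fell, no pair was called (adjusted p between 0.59 and 0.947 from edgeR), but with library size alone ifc was called higher in OE than in IR-2 (0.28, adjusted p = 0.0341 from edgeR) and than in IR-3 (0.16, adjusted p = 0.0299 from edgeR). Between IR and these 3 genotypes ifc was called each time, at 0.40 against IR-2 (adjusted p = 0.00567 from edgeR, and 0.0509 without IR replicate 1; 0.77 with library size alone and 0.26 without IR-2 replicate 1), 0.33 against IR-3 (adjusted p = 0.00112 from edgeR; 0.65 with library size alone) and -0.41 in OE against IR (adjusted p = 6.84e-06 from edgeR).

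Among the 4 genotypes other than control, 30 of the 48 tests of a desaturase gene in a pair were called. The share of all genes called in each pair stands beside it in brackets. Of the 8 genes, 5 were called between IR and IR-2 (51.7% of all genes tested), 6 between IR and IR-3 (56.6%) and 3 between IR-2 and IR-3 (36.3%, or 2419 in place of 4186 genes with edgeR's exact test). For OE, 6 were called against IR (67.9%), 4 against IR-2 (59.8%) and 6 against IR-3 (61.9%). Being called was common among all genes in these pairs too, and nothing particular to the desaturase genes is read from these counts. Desat1 was lower in IR than in IR-2 by 1.45-fold (adjusted p = 6.31e-07 from edgeR) and than in IR-3 by 1.43-fold (adjusted p = 4.02e-07 from edgeR). The log2 differences were -0.54 and -0.52, or -0.17 and -0.20 with library size alone. Between IR-2 and IR-3 the log2 difference of Desat1 was 0.03 (95% interval -0.0185 to 0.0784, adjusted p = 0.298 from edgeR), which was called with the replicate number as a block (0.0414) and turned to -0.03 with library size alone. Desat2 was called in none of the 6 pairs, with intervals as wide as -1.13 to 1.03, so its order among these genotypes could not be told at its depth. The replicate 2 libraries of IR-2 and IR-3 held more RNA of 10 gut markers, at 931 and 796 summed TMM-rescaled TPM against 166 to 372 in the other libraries. Desat2 had 0.839 in replicate 2 and 0.645 in replicate 1 of IR-2, and 1.08 in replicate 2 and 0.494 in replicate 1 of IR-3. In OE the gut markers had 372 in replicate 2 and 267 in replicate 1, while Desat2 had 0.599 and 0.978. In IR and control, Desat2 was also lower in replicate 2, where the gut sum was slightly higher. The part of these markers in the desaturase values was not tested.

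The other genes of hydrocarbon synthesis were taken as a list of 26 genes (fatty acid synthesis, elongation, electron supply, reduction and decarbonylation, and regulators). Of them, 5 were higher and 19 lower in libraries labelled IR (9 and 15 with library size alone), 16 and 8 in IR-2 (13 and 11), 18 and 6 in IR-3 and 6 and 20 in OE. All genes tested were higher in 31.7% and lower in 30.6% in IR, 26% and 23.9% in IR-2, 26% and 26.7% in IR-3, and 31.4% and 33.7% in OE. The median log2 fold change of the list was -0.32, 0.20, 0.44 and -0.54 in the same order of genotypes, beside -0.0087, -0.0172, -0.0079 and 0.0357 over all genes. With library size alone it was -0.11, 0.04, 0.35 and -0.36, beside 0.20, -0.18, -0.10 and 0.21 over all genes. Among the genes of electron supply on the list, Cyt-b5 was 3145 and 3224 TMM-rescaled TPM in IR, 6070 and 6019 in IR-2, 5488 and 5511 in IR-3, 5498 and 5613 in OE, and 8493 and 8577 in control. Cyt-b5 fell in all 4 genotypes, most in IR (log2 fold change -1.41, SE 0.0164, adjusted p = 5.78e-17 from edgeR) and least in IR-2 (-0.50, SE 0.0158, adjusted p = 1.14e-07 from edgeR). Cyt-b5-r was placed under electron supply on the list, and whether it has that role was not tested. It rose in IR-3 (0.97, SE 0.0174, adjusted p = 1.15e-09 from edgeR) and OE (0.66, SE 0.0168, adjusted p = 5.16e-12 from edgeR). Its log2 fold change was -0.09 in IR and 0.18 in IR-2. CG5946, also placed under electron supply on the list, was higher in all 4 genotypes, with 193 and 193 TMM-rescaled TPM in IR, 255 and 251 in IR-2, 403 and 404 in IR-3, 390 and 373 in OE, and 173 and 172 in control. Its log2 fold change was 0.18 in IR (SE 0.0231, adjusted p = 9.23e-06 from edgeR) and 1.18 in IR-3 (SE 0.0196, adjusted p = 7.82e-10 from edgeR), with 0.56 in IR-2 and 1.013 in OE.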

How the data were processed

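RNA of 10 oenocyte libraries was sequenced, 2 for each of 5 genotypes, and grouped by the genotype in the labels. The authors trimmed reads with fastp 0.22.0, mapped them with Bowtie2 to dme6 and estimated expected counts per gene with RSEM 1.2.31. TPM values were deposited as RSEM gave them to the authors, 1 column per library. The deposited TMM-rescaled TPM values (a signal per gene) are the authors' TPM multiplied by 1 factor per library. The annotation release and strand setting they used are not given in the sources used here, and names and positions come from BDGP6.54, which matched 13983 of 13986 identifiers.

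Expected counts were rounded to whole numbers and tested in edgeR 4.0.16 (R 4.3.3) by glmQLFit and glmQLFTest after filterByExpr (minimum count 10, minimum total 15) and TMM, with Benjamini-Hochberg adjustment over all genes tested, on the 4 libraries of each comparison. All adjusted p values are from edgeR unless DESeq2 is named. All 8 desaturase genes passed the filter in every comparison. Likeness of pattern was taken on gene-centred log2 CPM (prior count 2) and is given for desaturases whose genotype means spanned at least 1. Alternatives were library size alone, DESeq2 1.42.0, a dispersion estimated on all 10 libraries, the exact test of edgeR, 2 other filters (1 count in total, 10 counts in every library), the replicate number as a block, limma 3.58.1 on log2 of the deposited TMM-rescaled TPM plus 1 or 0.1, and leaving out each library, where a lone library is assumed to vary like the other group. Genes named are the 8 desaturases, fru, neighbouring genes, the 3 genes closest in pattern, and pathway or marker genes beside which a result stands. The desaturase genes and all lists were chosen with earlier results of these data known. No library was left out, and 0 columns were unused.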

Additional observations from a re-analysis of the deposited data

Results flagged for a closer look

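For Desat1, CG8630, CG9747 and CG15531, the difference from control went in opposite directions in a pair of genotypes, each called against control, and the difference between the pair was itself called by edgeR. Desat1 had a log2 fold change of -0.46 in libraries labelled IR and 0.08 in IR-2, with a difference of -0.54 (adjusted p = 6.31e-07 from edgeR), and of -0.33 in OE, with a difference from IR-2 of -0.36 (adjusted p = 3.1e-06 from edgeR). With library size alone Desat1 was lower in IR-2 too. CG8630 had 6.98 in OE, -1.21 in IR-2 and -0.81 in IR-3, with differences of 8.25 from IR-2 (adjusted p = 7.23e-10 from edgeR) and 7.85 from IR-3 (adjusted p = 8.39e-12 from edgeR). CG9747 had -1.33 in OE and 0.80 in IR, with a difference of -2.10 (adjusted p = 4.8e-05 from edgeR). CG15531 had -0.47 in IR and 0.74 in IR-3, with a difference of -1.22 (adjusted p = 1.38e-09 from edgeR), and -0.88 in OE, with a difference from IR-3 of -1.55 (adjusted p = 3.15e-10 from edgeR).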

How the results depend on the processing

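Of 416 alternative values for the 8 genes against control, 385 kept their direction and their side of the threshold, and 20 of 32 results did so under every alternative run. Among the other genotypes these were 567 of 624 values and 26 of 48 results. The number of desaturase genes called in IR-3 against control, 5, lay between 3 (without control replicate 1) and 7 (without IR-3 replicate 2) on leaving out 1 library. Library size alone moved the median of all genes by 0.214, -0.164, -0.091 and 0.174 in IR, IR-2, IR-3 and OE against control, and gave 5503 genes higher and 2048 lower (3721 and 3587 with TMM), 2089 and 4495 (2982 and 2739), 2371 and 3861 (2981 and 3065), and 4882 and 3096 (3638 and 3906). It turned ifc to 0.1153 in IR, Desat1 to -0.0792 and CG15531 to -0.1397 in IR-2, and Desat1 to -0.0475 in IR-3. The 4-fold limit was passed by 137, 89, 70 and 282 genes with limma on values plus 1, against 325, 200, 155 and 479 in the same 4 comparisons, by 205 in IR with at least 10 counts in every library, and by 108 to 330 in IR-2 on leaving out 1 library. Shares of expected counts in place of TPM were 89.5%, 90.2%, 85.2%, 81.3% and 89.4% for Desat1 in IR, IR-2, IR-3, OE and control.

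The numbers of replicates mark no stated batch. The deviations of same-numbered libraries correlated at 0.689 between IR-2 and IR-3, and between -0.029 and 0.299 over the other pairs of genotypes. With the replicate block, 6 desaturase genes were called in IR-3 against control, Desat2 at -0.96 being added, and 6, 6 and 8 in IR, IR-2 and OE.

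Other reversals concerned differences among the 4 genotypes other than control that were not called. Library size alone turned Desat2 to 0.0074 (IR against IR-2), 0.2782 (OE against IR-2) and 0.1626 (OE against IR-3), CG9747 to 0.3189 (IR against IR-3), Desat1 to -0.0318 (IR-2 against IR-3), CG9743 to -0.0412 (OE against IR), Fad2 to 0.1191 (OE against IR-2), and ifc to 0.2771 and 0.1601 (OE against IR-2 and IR-3). The limma fits turned Desat2 to 0.0004 (IR-2 against IR-3), to 0.0321 and 0.0536 (OE against IR-2) and to 0.0138 and 0.054 (OE against IR-3), and ifc to 0.0624 and 0.0663 (OE against IR-2) and to 0.0024 and 0.0025 (OE against IR-3). CG9747 in IR against IR-3 became 0.0156 with the dispersion from all libraries, 0.0131 and 0.0198 with the other filters and 0.0347 with the replicate block, CG9743 in OE against IR became -0.0068 with the dispersion from all libraries, and Desat2 in OE against IR-2 became 0.0001 with the looser filter. Leaving out 1 library gave -0.8072 to 0.0147 for Desat2 (IR against IR-2), -0.9124 to 0.2058 (IR against IR-3), -0.523 to 0.5986 (IR-2 against IR-3), -0.0381 to 0.7867 (OE against IR), -0.3601 to 0.3261 (OE against IR-2) and -0.514 to 0.5791 (OE against IR-3). It gave -0.0328 to 0.0964 (IR against IR-2), -0.0515 to 0.1594 (OE against IR) and -0.0038 to 0.2056 (OE against IR-2) for CG9743, -0.3174 to 0.4279 (IR against IR-3) and -0.6022 to 0.1329 (IR-2 against IR-3) for CG9747, and -0.1795 to 0.0772 (IR-2 against IR-3) and -0.1435 to 0.0955 (OE against IR-2) for ifc. Depth limits Desat2 and CG9747, with at most 54 and 86 counts in a library. The cause of these changes was not tested.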
